A study of Mus musculus with 20 samples.

Results

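The comparison described here set the hippocampal mRNA of 3 mice given a miR-124 sponge (miR124sp, replicates 14, 2 and 9) against that of 3 mice given GFP alone in the miR-125 experiment of the same study (replicates 14, 15 and 4). These 6 mice were chosen by their labels, out of 12 mice with mRNA-seq and 20 samples in all, and the GFP mice serve as a second control group for the sponge. The study asked which genes miR-124 and miR-125 regulate in neurons of the adult hippocampus, and its 8 remaining libraries held RNA bound to AGO2. All 12 mRNA-seq animals were adult C57BL/6 male mice injected in both hippocampi with AAV5 vectors that carry GFP, and each library came from a single mouse. The sponge group received AAV5-GFP.miR124sp and the control group AAV5-GFP. A human synapsin promoter drove both vectors, so that the transgene is expressed in neurons, while the RNA measured was that of the entire hippocampus, with untransduced cells and glia. A gene's lower level in such bulk RNA can mean fewer cells of a type or less RNA per cell, and the sequencing cannot tell these apart. In the following, "control mice" are the GFP mice of the miR-125 experiment, and the GFP mice of the miR-124 experiment (replicates 15, 20 and 8) are named as such. The sponge and control mice belonged to different experiments, so that the sponge and the experiment cannot be told apart in this comparison.

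MicroRNAs guide AGO proteins to messenger RNAs, mostly by pairing of the miRNA seed with a short site in the 3′UTR, which lowers the stability or translation of the message. miR-124 is among the most abundant miRNAs of neurons and is known for keeping genes of non-neuronal cells low there. A sponge is a transcript with several imperfectly matched binding sites that occupies a miRNA, so that messages with a seed site would be freed from it. The seed is the stretch of bases 2 to 8 of the miRNA, and the site that pairs with it reads GTGCCTT in the message. The longer 8-base site GTGCCTTA adds an A opposite base 1, and every 8-base site also holds the 7-base one. Both were searched on the sense strand of the longest annotated 3′UTR of each gene (GENCODE M1, NCBIM37). Of 19388 annotated 3′UTRs, 12.3% held the 7-base site and 2.58% the 8-base site. A set of 4 genes of the present comparison were both called higher in the sponge mice and held an 8-base site. They were 1.10% of the 365 tested genes with such a site, near the 0.917% called higher over all genes tested. Their sites are printed as examples of the pairing the sponge was built to disturb. Whether the sponge acted on these genes was not tested. Each line gives 28 bases of NCBIM37 on the sense strand of the gene with the 8-base match in capitals. The last 2 lines give 20 bases of the annotated hairpins Mir124a-1 and Mir124a-3, starting 1 base before the seed, with the seed in capitals. The gene Pcsk1n holds its site at chrX:7501157-7501184 (+), Scn4b at chr9:44959768-44959795 (+), Usp2 at chr9:43902883-43902910 (+) and Tmem88b at chr4:155155833-155155860 (-), all in the 3′UTR, and the hairpin stretches lie at chr14:65209546-65209565 (+) and chr2:180628788-180628807 (+).
Pcsk1n: aggtaaatctctGTGCCTTAaaggccag
Scn4b: tggggctagattGTGCCTTAgttcctcg
Usp2: cctccaagaattGTGCCTTAtagcattt
Tmem88b: ggttggtagcaaGTGCCTTAacaccatg
Mir124a-1: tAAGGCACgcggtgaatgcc
Mir124a-3: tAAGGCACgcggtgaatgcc

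The values are the authors' deposited counts of reads per RefSeq transcript, summed here per gene. The sponge libraries of mice 14, 2 and 9 held 16957240, 14582631 and 13064658 counts, and the control libraries of mice 14, 15 and 4 held 7190513, 6950522 and 25831488. Levels are given as CPM, the usual counts per 1000000 counts of a library, after TMM scaling. Of the genes named, Coro6, Dcn, Mobp, Mal, Enpp2, Grin1, Kcnd3, Usp2, Gfap and H2bc4 have several RefSeq transcripts. Reads shared between transcripts may have been divided, left out or counted more than once, and the sources do not say which. If they were left out, the sum per gene is too low, so that the levels of these genes are uncertain. Sponge mouse 9 stood apart from the other sponge mice. On the first principal component of the 6 libraries, with 44.9% of the variance, sponge mice 14 and 2 lay at -31.48 and -24.03, sponge mouse 9 at 4.95 and the control mice between 11.4 and 22.0. The headers of control mice 14 and 15 and of sponge mice 2 and 9 lack a mark that the headers of the other 2 mice carry. The mark has no explanation in the sources used here and splits both groups in the same way.

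Of 12436 genes tested, 114 were higher in the sponge mice (0.917% of genes tested) and 150 lower (1.21%) at an edgeR adjusted p below 0.05. At an unadjusted p below 0.05 there were 2647 genes (21.3%). The median log2 fold change was 0.58 among the genes called higher and -0.57 among those called lower, and 19 and 37 of them changed by 2-fold or more. All 264 called genes had no overlap between the 3 sponge and the 3 control mice, which was so for 12.5% of all genes tested in the upward and 12.7% in the downward direction. The number of calls turned on single mice. Sponge mouse 9 lay between the control mean and both other sponge mice for 70 of the genes called higher and 90 of those called lower. Without it, 914 genes were higher (7.15% of 12786) and 873 lower (6.83%), and these included all 264. Without sponge mouse 14, 3 genes were higher and 8 lower, without sponge mouse 2 they were 4 and 11, and without control mouse 14, 15 or 4 there were 0 higher and 3, 1 or 2 lower (1094, 1168 and 1006 higher at an unadjusted p below 0.05). With the header mark as a term in the fit, 49 genes were higher (0.394%) and 74 lower (0.595%).

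Rspo1 encodes R-spondin 1, a secreted enhancer of Wnt signalling, and was at 13.5, 12.2 and 4.88 CPM in sponge mice 14, 2 and 9 against 3.77, 1.74 and 1.73 CPM in control mice 14, 15 and 4 (the order kept throughout). The log2 fold change was 2.20 ± 0.43 (SE, adjusted p = 0.0402), and all 3 sponge mice were above the 9 other mRNA-seq mice. Wnt10a, a Wnt ligand, stood at 16.3, 15.2 and 8.23 CPM in the sponge mice against 4.60, 5.36 and 5.38 in the control mice. Its rise (log2 fold change 1.36 ± 0.25, adjusted p = 0.0358) set the sponge mice above all 9 others as well, with mouse 9 the lowest of the sponge mice. Dkkl1, a secreted relative of the Dickkopf proteins, was at 14.7, 14.1 and 6.02 CPM in the sponge mice against 2.79, 3.91 and 1.61 in the control mice (log2 fold change 2.25 ± 0.41, adjusted p = 0.0358). In these 3 Wnt-related genes mouse 9 lay between the other sponge mice and the control mice, as the plot of the largest rises and falls shows.

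Scn4b, the beta 4 subunit of voltage-gated sodium channels, had the highest level of the 10 largest rises, at 141, 121 and 72.4 CPM in the sponge mice against 51.1, 41.6 and 34.8 in the control mice. The log2 fold change was 1.42 ± 0.23 (SE, adjusted p = 0.0273), with the sponge mice above all 9 others, and the GFP mice of the miR-124 experiment were lower still, at 22.7 to 26.6 CPM. Lrrc38, an auxiliary subunit of large-conductance potassium channels, was at 4.27, 3.56 and 2.59 CPM in the sponge mice against 1.67, 1.01 and 1.34 in the control mice (log2 fold change 1.38 ± 0.28, adjusted p = 0.044). Amn, the partner of cubilin in the uptake of vitamin B12, was at 16.1, 14.4 and 9.53 CPM in the sponge mice against 3.49, 8.12 and 4.63 in the control mice (log2 fold change 1.35 ± 0.28, adjusted p = 0.047). These 3 genes, like A830009L08Rik, a RIKEN transcript (log2 fold change 2.17 ± 0.39, adjusted p = 0.0349), were above all 6 GFP mice. The remaining members of the 10 were not: Gm5415, a predicted gene, rose most (log2 fold change 2.52 ± 0.36, adjusted p = 0.0225), from 0.435 to 0.558 CPM in the control mice to 1.91 to 3.86 CPM, but the highest GFP mouse of the miR-124 experiment was within that range. Col24a1, a fibrillar collagen (log2 fold change 1.97 ± 0.38, adjusted p = 0.0388), and Coro6, an actin-binding coronin (log2 fold change 1.88 ± 0.34, adjusted p = 0.0358), overlapped the GFP mice of the miR-124 experiment too, which reached 3.52 and 3.02 CPM.

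**Figure D1:**
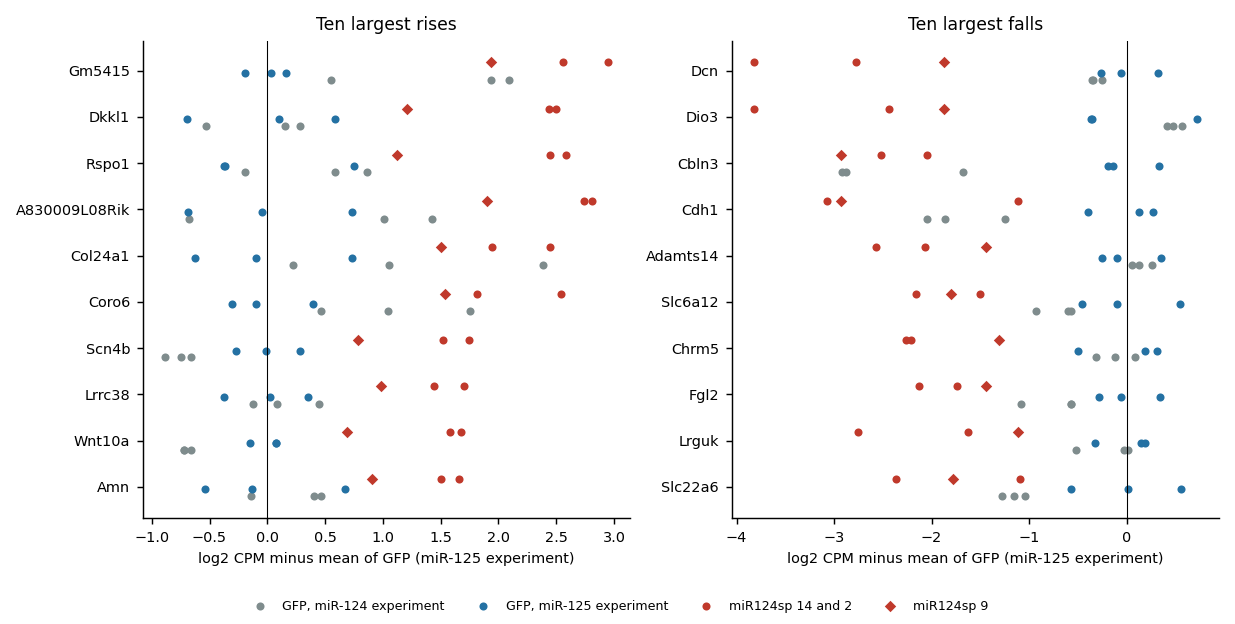
The 10 largest rises (left) and falls (right) among called genes with a mean of at least 20 counts, as log2 CPM of each mouse minus the mean of the 3 control mice. Red marks are sponge mice (the diamond is mouse 9), blue the control mice and grey the GFP mice of the miR-124 experiment; sponge and control mice do not overlap for any of the 20 genes, and grey marks reach the sponge mice for Gm5415, Col24a1, Coro6, Cbln3, Cdh1 and Slc22a6.

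The largest fall was of Dcn, which encodes decorin, a small proteoglycan of fibroblasts and the meninges. It was at 0.237, 0.489 and 0.915 CPM in the sponge mice against 2.79, 4.20 and 3.22 in the control mice (log2 fold change -2.66 ± 0.39, adjusted p = 0.0228), below all 9 other mice, although at these levels it had a mean of only 25.7 counts. Dio3, an imprinted gene whose enzyme inactivates thyroid hormone, was at 0.534, 1.40 and 2.06 CPM in the sponge mice against 5.86, 12.5 and 5.89 in the control mice. The log2 fold change was -2.60 ± 0.45 (SE, adjusted p = 0.0331), and the sponge mice lay below all 9 others, with 10.1 to 11.2 CPM in the GFP mice of the miR-124 experiment. Chrm5, the muscarinic M5 receptor (log2 fold change -1.94 ± 0.31, adjusted p = 0.0269), Adamts14, a protease of procollagen (log2 fold change -2.05 ± 0.33, adjusted p = 0.0269), Fgl2, a fibrinogen-like protein of immune cells (log2 fold change -1.82 ± 0.23, adjusted p = 0.015), and Lrguk (log2 fold change -1.76 ± 0.36, adjusted p = 0.0465) were also lowest in the 3 sponge mice of all 12. Chrm5 was at 0.949, 0.979 and 1.83 CPM in the sponge mice against 3.21, 5.65 and 5.18 in the control mice. Slc6a12, a transporter of betaine and GABA (log2 fold change -1.97 ± 0.34, adjusted p = 0.0331), lay below the 6 GFP mice.

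The control groups themselves parted for the other 3 falls. Cbln3, a cerebellin known from granule cells of the cerebellum, was at 1.01, 1.40 and 0.762 CPM in the sponge mice against 7.26, 5.07 and 5.26 in the control mice (log2 fold change -2.44 ± 0.27, adjusted p = 0.0109). The GFP mice of the miR-124 experiment had 0.767 to 1.81 CPM, overlapping the sponge mice, and differed from the control mice by the contrast of the 12-mouse fit (control minus other GFP, log2 2.39, adjusted p = 0.00221). Cdh1, E-cadherin of epithelial cells (log2 fold change -2.12 ± 0.44, adjusted p = 0.0479), and Slc22a6, an organic anion transporter found in the meninges (log2 fold change -1.73 ± 0.34, adjusted p = 0.0418), likewise overlapped, with 0.842 to 1.46 and 4.55 to 5.33 CPM in the GFP mice of the miR-124 experiment. The control groups differed at adjusted p = 0.0225 for Cdh1 and 0.0368 for Slc22a6.

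Plagl1 was the gene least dependent on any one mouse, and was chosen after its values were seen. It is an imprinted zinc finger factor that restrains growth. Its level was 29.5, 32.1 and 33.1 CPM in the sponge mice against 72.6, 85.1 and 74.3 in the control mice, and 55.5 to 71.7 in the GFP mice of the miR-124 experiment, so that the 3 sponge mice were lowest of all and close to each other. The log2 fold change was -1.29 ± 0.086 (SE, adjusted p = 0.000972), a fall of 2.45-fold, and the control groups differed by log2 0.26 (adjusted p = 0.0498). The fall was called without each of the 6 mice in turn, the only 1 of the 264 genes of which this held. Slc5a3, the sodium-dependent myo-inositol transporter and also chosen after its values were seen, was called in 4 of the 6 fits. It stood at 58.3, 61.4 and 59.5 CPM in the sponge mice against 88.5, 107 and 99.8 in the control mice, with 53.1 to 65.7 CPM in the GFP mice of the miR-124 experiment, which covered the sponge mice.

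Genes with miR-124 sites had median log2 fold changes close to 0. The 1718 tested genes with a 7-base site had a median log2 fold change of -0.0024, the 9806 genes without one -0.0034, and the 365 with an 8-base site -0.00017. In the 7-base group 11 genes were higher (0.640%) and 26 lower (1.51%), and in the 8-base group 4 were higher (1.10%) and 1 lower (0.274%). Over all genes tested the shares were 0.917% and 1.21%. Within 5 bins of 3′UTR length with equal numbers of genes the median of genes with a site exceeded that of genes without one by 0.012 to 0.049. The 300 genes whose 3′UTR fell most in rank of AGO2 binding with the miR-124 sponge were taken from the RIP-seq libraries, which do not enter the mRNA fit. Of these, 266 were tested here, with a median of -0.035, 0 called higher and 3 lower by edgeR. The study reported a modest but significant rise of its own such list against the GFP mice of its miR-124 experiment. Medians of single mice were also taken, as log2 CPM minus the control mean. For the 266 genes they were -0.048 to -0.014 in the sponge mice and -0.115 to -0.059 in the GFP mice of the miR-124 experiment. For the 7-base group they were -0.010 to 0.0070 and -0.051 to -0.025. The other 1654 AGO2-bound genes had a median of -0.026, so that both groups lay close to all genes tested, whose median was 0.00, as the cumulative curves show.

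**Figure D2:**
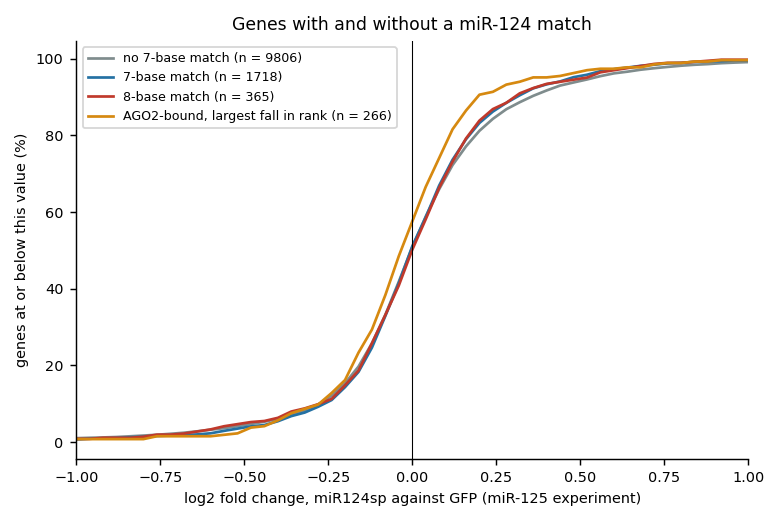
Cumulative share of genes (vertical axis, percent) at or below each log2 fold change of sponge against control mice (horizontal axis). Curves show genes without a miR-124 site, with a 7-base site, with an 8-base site and the 266 tested AGO2-bound genes with the largest fall in rank; all run close together and cross 50% near 0.

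Of 57 genes known from the literature as miR-124 targets, 47 were tested. None was called by edgeR in either direction, their median was -0.040, 6 were higher in all 3 sponge than in all 3 control mice and 9 lower, against 12.5% and 12.7% of all genes tested. Rhog, a small GTPase of the actin cytoskeleton and neurite branching, came nearest, at 43.2, 38.4 and 33.3 CPM in the sponge mice against 27.5, 22.6 and 29.3 in the control mice (log2 fold change 0.52 ± 0.12, adjusted p = 0.0591). The sponge mice held the 3 highest values of all 12 for this gene. Ctdspl, a small phosphatase of the complex that silences neuronal genes (log2 fold change 0.24 ± 0.078, adjusted p = 0.129), and Tln1, talin, which links integrins to actin (log2 fold change 0.16 ± 0.059, adjusted p = 0.171), likewise had the sponge mice above all others without passing the threshold. Efnb1 (ephrin B1), Rap2a (a small GTPase) and Sox9 (a glial transcription factor) had values in the opposite direction, with log2 fold changes of -0.32, -0.15 and -0.15 and adjusted p from 0.111 to 0.176. Nr4a1, an activity-induced nuclear receptor that the study followed further, was at 81.1, 94.9 and 74.9 CPM in the sponge mice against 123, 89.6 and 78.2 in the control mice (log2 fold change -0.20 ± 0.16, adjusted p = 0.5). Here the sponge and control mice overlapped, while the GFP mice of the miR-124 experiment were at 37.5 to 51.2 CPM and differed from the control mice (log2 1.14, adjusted p = 0.000275). The study reported more Nr4a1 mRNA with the sponge than in those GFP mice. Against them the sponge mice were higher here too (log2 0.94, adjusted p = 0.000976, 12-mouse fit with edgeR).

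miR-124 itself is not measured by these libraries. Its host transcripts were looked up after the values were seen. Mir124a-1hg was at 159, 99.5 and 113 CPM in the sponge mice against 96.3, 98.9 and 82.0 in the control mice (log2 fold change 0.43 ± 0.16, adjusted p = 0.168) and did not overlap between the groups, although the GFP mice of the miR-124 experiment, at 117 to 226 CPM, overlapped the sponge mice and differed from the control mice (adjusted p = 0.012). Mir124-2hg was at 8.96, 8.11 and 6.10 CPM in the sponge mice against 6.14, 8.70 and 7.11 in the control mice (log2 fold change 0.089 ± 0.19, adjusted p = 0.831), with overlap. The genes with the printed 8-base sites each have 1 site. Pcsk1n, the proSAAS precursor that inhibits a prohormone convertase, was at 609, 650.2 and 661 CPM in the sponge mice against 402, 432 and 485 in the control mice (log2 fold change 0.54 ± 0.074, adjusted p = 0.0219). The GFP mice of the miR-124 experiment, at 557 to 712 CPM, covered the sponge mice, and the control groups differed at adjusted p = 0.000637. Usp2, a deubiquitinase with a daily rhythm, was at 7.59, 7.20 and 6.71 CPM in the sponge mice against 3.63, 2.90 and 4.40 in the control mice (log2 fold change 0.92 ± 0.18, adjusted p = 0.0389), a gene with 3 RefSeq transcripts and few counts. Tmem88b, a transmembrane protein, was at 199.7, 168 and 155 CPM in the sponge mice against 129, 96.7 and 119 in the control mice (log2 fold change 0.59 ± 0.12, adjusted p = 0.041). The sponge mice were above all 9 others for Usp2, Tmem88b and Scn4b.

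Oligodendrocyte and myelin genes, which wrap axons and mark white matter, were mostly higher in the sponge mice. Of 24 tested, 9 were called higher and 0 lower by edgeR, against 0.917% and 1.21% of all genes, the median log2 fold change was 0.63, and 21 had the sponge mice above the control mice (12.5% of all genes). Mog, a glycoprotein of the outer myelin surface, was at 132, 102 and 94.6 CPM in the sponge mice against 72.1, 51.6 and 61.4 in the control mice (log2 fold change 0.83 ± 0.14, adjusted p = 0.032). Mobp, a structural protein of compact myelin (log2 fold change 0.88 ± 0.15, adjusted p = 0.0318), Mal, a proteolipid of myelin membranes (log2 fold change 0.80 ± 0.14, adjusted p = 0.0331), and Olig1, a factor of the lineage (log2 fold change 0.36 ± 0.061, adjusted p = 0.0312), were called too, along with Cnp, Cldn11, Opalin, Olig2 and Enpp2. Olig1 was at 207, 203 and 198 CPM in the sponge mice against 155, 146 and 169 in the control mice, without overlap. The GFP mice of the miR-124 experiment overlapped the sponge mice for Olig1 (173 to 199.6 CPM) and Mobp (15.8 to 24.7 CPM), and the control groups differed at adjusted p = 0.0208 and 0.0469. The abundant myelin basic protein Mbp (log2 0.057) and the precursor marker Cspg4 (log2 -0.033) were not called. The summed level of the list was 3009, 2493 and 2312 CPM in the sponge mice against 1968, 1456 and 1882 in the control mice, with 1660 to 1773 in the GFP mice of the miR-124 experiment. Without sponge mouse 9, 21 of the 24 were higher (7.15% of all genes), and with the header mark as a term 5 were (0.394%).

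Genes of the meninges and fibroblasts were mostly lower in the sponge mice. Of 19 tested, 0 were higher and 9 lower by edgeR, the median was -1.12, all 19 were negative and 14 had the sponge mice below the control mice. Over all genes tested, 0.917% were called higher, 1.21% were called lower and 12.7% had the sponge mice below the control mice. Ptgds, the prostaglandin D synthase made by meningeal cells, was at 257, 372 and 243 CPM in the sponge mice against 565, 824 and 714 in the control mice (log2 fold change -1.27 ± 0.18, adjusted p = 0.0219). Slc6a13, a GABA transporter of the meninges, was at 5.81, 8.18 and 5.95 CPM in the sponge mice against 13.5, 17.5 and 18.1 in the control mice (log2 fold change -1.32 ± 0.17, adjusted p = 0.0145). Slc6a20a, a transporter of proline (log2 fold change -0.80 ± 0.12, adjusted p = 0.0233; the GFP mice of the miR-124 experiment overlapped the sponge mice), Dcn and Slc22a6 from the largest falls, and Col1a2, Aldh1a2, Fmod and Bgn were the others called. The summed level was 612, 779 and 608 CPM in the sponge mice against 1061, 1371 and 1334 in the control mice. In the GFP mice of the miR-124 experiment it was 816 to 1003, between the sponge and the control mice. With the header mark as a term 6 of the 19 were lower (0.595% of all genes). The levels also varied between mice given the miR-125 sponge (replicates 24, 6 and 9). Ptgds was at 244, 653 and 1113 CPM there and Slc6a13 at 7.83, 16.7 and 25.7 CPM. For both genes mouse 24 of that group lay within the range of the miR-124 sponge mice.

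Markers of the choroid plexus, a secretory tissue beside the hippocampus, varied between mice of the same group. Their summed level was 108, 135 and 2500 CPM in the sponge mice against 1548, 163 and 1175 in the control mice, so that sponge mouse 9 and control mice 14 and 4 were high and the other 3 low. Ttr, transthyretin, was at 25.1, 39.5 and 2140 CPM in the sponge mice against 1250, 46.4 and 897 in the control mice. Of 21 genes tested, 1 was higher (Enpp2, also in the myelin list) and 0 lower by edgeR, and the median was -0.40. Without sponge mouse 9, 20 were lower, against 6.83% of all genes tested in that fit. Genes of blood could not be tested, since none passed the filter on low counts. The part of tissue from the meninges, choroid plexus and white matter in the results for other genes was not tested.

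**Figure D3:**
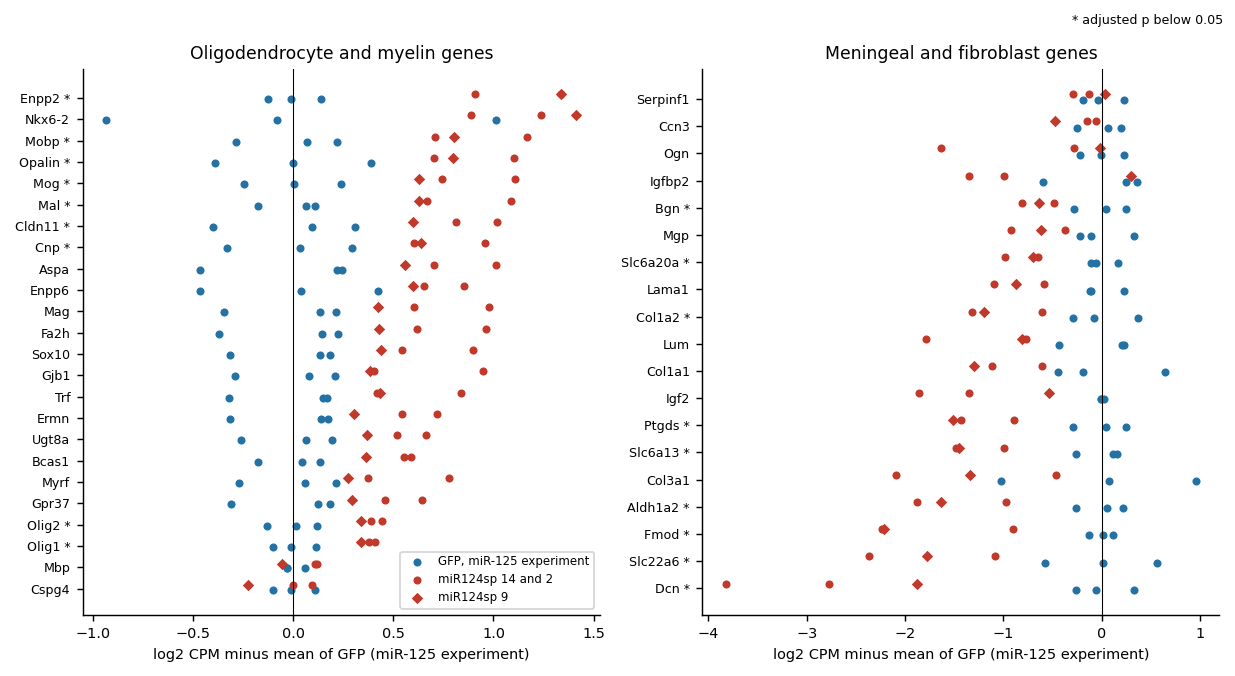
Tested oligodendrocyte and myelin genes (left) and meningeal and fibroblast genes (right), as log2 CPM of each mouse minus the mean of the 3 control mice (horizontal axis); asterisks mark genes with an adjusted p below 0.05. Sponge mice (red, mouse 9 as a diamond) lie right of the control mice (blue) for 21 of the 24 myelin genes and left of them for 14 of the 19 meningeal genes.

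**Figure D4:**
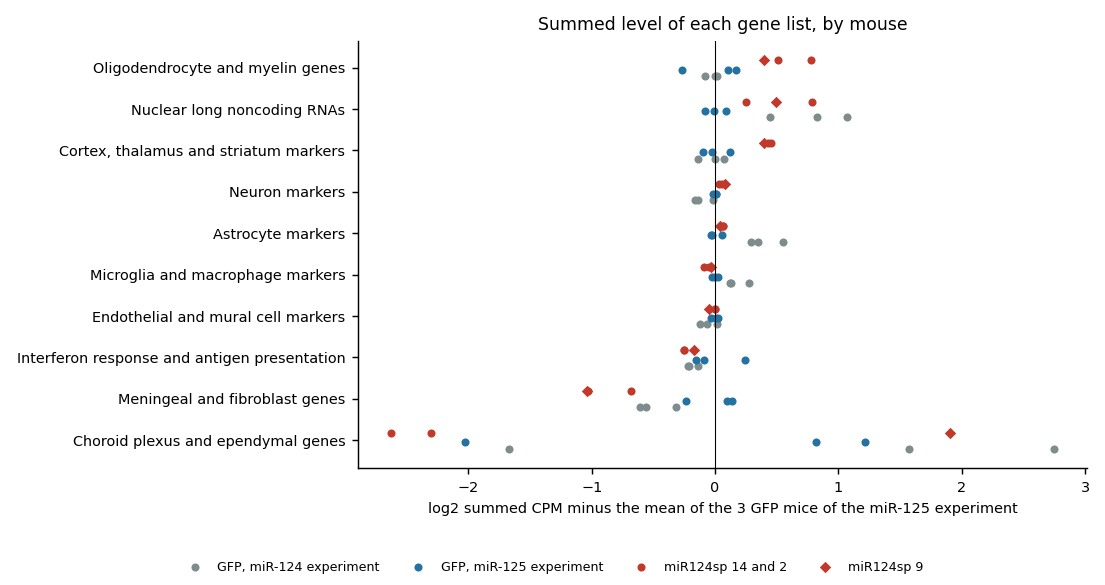
Summed CPM of 10 gene lists in each mouse, as log2 minus the mean of the 3 control mice. Sponge mice (red) lie right of the control mice (blue) for myelin genes and left of them for meningeal genes, while the choroid plexus sums range over several log2 units within each group; grey marks are the GFP mice of the miR-124 experiment.

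Neuronal markers, checked against the labelled tissue, had a high summed level in all 6 mice. It was 14663, 14981 and 15162 CPM in the sponge mice against 14417, 14486 and 14230 in the control mice. Not every member was abundant. Syt1 was at 1.60, 1.26 and 1.91 CPM in the sponge mice against 1.40, 1.30 and 1.73 in the control mice. Map2 was at 1.66, 1.89 and 1.45 CPM against 0.977, 2.46 and 1.81. For this and the following lists, the shares over all genes tested were 0.917% called higher and 1.21% called lower. Of 25 neuron markers 2 were higher and 0 lower: Grin1, the obligatory subunit of NMDA receptors, at 52.0, 52.8 and 52.7 CPM in the sponge mice against 41.4, 38.6 and 34.9 in the control mice (log2 fold change 0.46 ± 0.082, adjusted p = 0.0345), and Nrgn, neurogranin of dendritic spines (log2 fold change 0.32 ± 0.067, adjusted p = 0.047). Both were above all 9 other mice. Of 20 interneuron markers 0 were higher and 3 lower. Nos1, the neuronal nitric oxide synthase, was at 55.2, 54.4 and 68.5 CPM in the sponge mice against 115, 119.6 and 92.4 in the control mice (log2 fold change -0.87 ± 0.12, adjusted p = 0.0225). The GFP mice of the miR-124 experiment, at 68.5 to 81.0 CPM, lay just above the highest sponge mouse and differed from the control mice (adjusted p = 0.00127), and against them the sponge mice were at log2 -0.29 (adjusted p = 0.0557, not called). Cnr1, the cannabinoid receptor of a class of interneurons (log2 fold change -0.42 ± 0.072, adjusted p = 0.0318), and the noncoding RNA Dlx6os1 (log2 fold change -0.46 ± 0.097, adjusted p = 0.0482) were the others, and Cnr1 overlapped the GFP mice of the miR-124 experiment.

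Markers of hippocampal subfields had few calls. None of 17 dentate granule cell markers was called by edgeR (median 0.14), and the most abundant, Sema5a and Stxbp6, had log2 fold changes of -0.017 and 0.035. Of 22 CA1 and CA3 pyramidal cell markers (median -0.068) 2 were lower, Dcn, which is also in the meningeal list, and Fibcd1, an acetyl-recognising receptor marking CA1. Without sponge mouse 9, 4 of the 22 were higher and 9 lower, with a median of -0.25. Over all genes tested in that fit, 7.15% were higher and 6.83% lower. Fibcd1 was at 169, 167 and 167 CPM in the sponge mice against 259, 247 and 224 in the control mice (log2 fold change -0.54 ± 0.066, adjusted p = 0.0142), below all 9 others. Of 18 markers of cortex, thalamus and striatum, regions outside the hippocampus, 1 was higher and 1 lower, and the median was 0.43. Lamp5, a lysosome-associated protein of some neurons, was at 149, 135 and 76.4 CPM in the sponge mice against 62.9, 60.6 and 43.6 in the control mice (log2 fold change 1.14 ± 0.24, adjusted p = 0.047), and Zic1, a zinc finger factor of septal and thalamic neurons, at 9.49, 12.6 and 13.1 CPM in the sponge mice against 20.8, 18.8 and 21.4 in the control mice (log2 fold change -0.81 ± 0.13, adjusted p = 0.027). The summed level of this list was 668, 654 and 642 CPM in the sponge mice against 479, 529.6 and 455 in the control mice, without overlap.

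Among glial and vascular lists, 2 of 21 astrocyte markers were higher, Ntsr2 (log2 fold change 0.30 ± 0.06, adjusted p = 0.0441) and the inhibitor of differentiation Id3 (log2 fold change 0.32 ± 0.067, adjusted p = 0.0496), both overlapping the GFP mice of the miR-124 experiment. Of 21 microglia and macrophage markers 1 was lower, Mrc1, the mannose receptor of macrophages at brain borders, at 2.31, 3.84 and 2.59 CPM in the sponge mice against 5.16, 6.96 and 7.38 in the control mice (log2 fold change -1.19 ± 0.23, adjusted p = 0.0408), with 3.47 to 4.71 CPM in the GFP mice of the miR-124 experiment, overlapping the sponge mice. None of 18 endothelial and mural markers was called by edgeR (median 0.0052), with Slc2a1 and Flt1 at log2 -0.085 and 0.059, nor any of 19 genes of reactive gliosis (median -0.20). Gfap, the filament protein of reactive astrocytes, was at 340.1, 391 and 409 CPM in the sponge mice against 478, 366 and 706 in the control mice (log2 fold change -0.45 ± 0.19, adjusted p = 0.22), with control mouse 4 the highest, and Gap43, a growth cone protein, had a log2 fold change of -0.18. Of 30 interferon and antigen presentation genes 3 were lower and the median was -0.30. These were the class II chains H2-Aa (log2 fold change -1.54 ± 0.28, adjusted p = 0.036) and H2-Ab1 (log2 fold change -1.19 ± 0.22, adjusted p = 0.0358) and the guanylate-binding protein Gbp6, at 4.75, 5.80 and 7.09 CPM in the sponge mice against 10.3, 10.6 and 12.4 in the control mice (log2 fold change -0.95 ± 0.17, adjusted p = 0.0345). All 3 overlapped the GFP mice of the miR-124 experiment.

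Ion channels and receptors moved in both directions. Of 50 potassium channel genes 3 were higher and 3 lower, with a median of 0.13. Hcn2, a pacemaker channel, was at 279, 267 and 221 CPM in the sponge mice against 178, 174 and 184 in the control mice (log2 fold change 0.51 ± 0.083, adjusted p = 0.0273), and the inward rectifier Kcnj4 at 148, 152 and 136 CPM in the sponge mice against 104, 114 and 111 in the control mice (log2 fold change 0.40 ± 0.064, adjusted p = 0.0269), both above all 9 other mice. Kcnd3, which carries A-type current, was at 118, 128 and 126.2 CPM in the sponge mice against 166, 175 and 175 in the control mice (log2 fold change -0.48 ± 0.057, adjusted p = 0.0142), and Kcng1, a silent subunit, changed by log2 -0.88 ± 0.15 (adjusted p = 0.0303). For both the GFP mice of the miR-124 experiment, at 109.9 to 136 and 28.2 to 35.3 CPM, overlapped the sponge mice. Kcns1 was also higher and Kcnj6 lower. Of 15 calcium and sodium channel genes 2 were higher, among them Scn4b, described above, and 1 lower, Cacna1e of R-type calcium channels (log2 fold change -0.30 ± 0.06, adjusted p = 0.0414), with 339 to 396 CPM in the GFP mice of the miR-124 experiment, below the sponge mice. Without sponge mouse 9, 20 of the 50 potassium channel genes were higher and 4 lower, against 7.15% and 6.83% of all genes tested in that fit.

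Of 36 glutamate and GABA receptor genes 2 were higher and 1 lower. Gabrd, the delta subunit of extrasynaptic GABA-A receptors, was at 60.6, 59.1 and 42.5 CPM in the sponge mice against 32.0, 29.1 and 23.9 in the control mice (log2 fold change 0.96 ± 0.15, adjusted p = 0.0269), and Gabra2, an alpha subunit of synaptic ones, at 231, 254 and 294 CPM in the sponge mice against 375, 355 and 343 in the control mice (log2 fold change -0.47 ± 0.089, adjusted p = 0.0388). Both lay outside all 9 other mice, in opposite directions. Of 38 synaptic vesicle genes 1 was lower, the active zone scaffold Bsn (log2 fold change -0.31 ± 0.065, adjusted p = 0.0479), which the GFP mice of the miR-124 experiment overlapped at 685 to 737 CPM.

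Axon guidance genes were also split, with 2 of 50 higher and 3 lower (median -0.030). Robo3, a receptor of midline crossing, was at 33.0, 25.1 and 26.7 CPM in the sponge mice against 14.0, 11.6 and 12.2 in the control mice (log2 fold change 1.17 ± 0.13, adjusted p = 0.0109), although 1 GFP mouse of the miR-124 experiment reached 31.2 CPM and the control groups differed at adjusted p = 0.0162. Sema7a, a membrane-anchored semaphorin, was at 279.7, 264 and 214 CPM in the sponge mice against 182, 154 and 170.4 in the control mice (log2 fold change 0.58 ± 0.10, adjusted p = 0.0331). Plxnc1, its plexin receptor, moved the other way, at 80.6, 75.2 and 87.8 CPM in the sponge mice against 107, 139 and 123 in the control mice (log2 fold change -0.60 ± 0.096, adjusted p = 0.0269), and lay below all 9 other mice. Unc5d, a netrin receptor family member (log2 fold change -0.53 ± 0.077, adjusted p = 0.0225; 65.3 to 89.4 CPM in the GFP mice of the miR-124 experiment, overlapping the sponge mice), and Nrp1, a semaphorin co-receptor, were lower too. Of 40 integrin and matrix genes 1 was higher, Hapln4, a link protein of perineuronal nets (log2 fold change 0.40 ± 0.066, adjusted p = 0.0275), and 1 lower, Tnr, tenascin R of the same nets (log2 fold change -0.40 ± 0.068, adjusted p = 0.0312), with 92.8 to 116 CPM for Tnr in the GFP mice of the miR-124 experiment, below the sponge mice.

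Of 41 immediate early genes, which neurons induce with activity, 0 were higher and 1 lower, with a median of -0.20. Fos was at 11.5, 18.0 and 12.7 CPM in the sponge mice against 35.3, 36.7 and 27.0 in the control mice (log2 fold change -1.21 ± 0.18, adjusted p = 0.0233). The GFP mice of the miR-124 experiment, at 8.09 to 9.26 CPM, were below the sponge mice, so that the sponge mice lay between both control groups, which differed at adjusted p = 3.98e-05. Dbp, a clock-controlled transcription factor, was the single call among 17 clock genes, at 59.9, 74.9 and 55.1 CPM in the sponge mice against 26.4, 38.4 and 30.8 in the control mice (log2 fold change 0.99 ± 0.15, adjusted p = 0.0228), above all 9 others. The median of the 17 was 0.22, and 14 were positive. All sponge mice were above all control mice for 8 (12.5% of all genes tested) and below for 0 (12.7%). Without sponge mouse 9, 7 were higher and 0 lower, against 7.15% and 6.83% of all genes in that fit. Fkbp5, which glucocorticoids induce, was the single call among 17 genes of that response, at 62.6, 64.2 and 71.1 CPM in the sponge mice against 81.9, 85.7 and 101.4 in the control mice (log2 fold change -0.46 ± 0.088, adjusted p = 0.0388). The GFP mice of the miR-124 experiment, at 61.0 to 77.7 CPM, covered the sponge mice, and the control groups differed at adjusted p = 0.0353. Hsph1, a heat shock protein, was the only lower one of 29 chaperone genes (log2 fold change -0.29 ± 0.059, adjusted p = 0.0458), and Sox11, a factor of immature neurons, the only one of 21 cell cycle and proliferation genes (log2 fold change -0.58 ± 0.069, adjusted p = 0.0142). For Hsph1 the sponge mice lay between both control groups, and for Sox11 they overlapped the GFP mice of the miR-124 experiment.

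Of 7 nuclear long noncoding RNAs 3 were higher and 0 lower, with a median of 0.61. Malat1, a nuclear speckle RNA, was at 1671, 1050 and 1412 CPM in the sponge mice against 858, 887 and 769 in the control mice (log2 fold change 0.71 ± 0.15, adjusted p = 0.0449). Neat1, the scaffold of paraspeckles, was at 286, 169 and 181 CPM in the sponge mice against 116, 98.4 and 96.6 in the control mice (log2 fold change 1.04 ± 0.18, adjusted p = 0.0341), and Kcnq1ot1, an imprinted antisense RNA of a potassium channel gene, at 76.5, 43.6 and 63.0 CPM in the sponge mice against 24.0, 33.8 and 24.3 in the control mice (log2 fold change 1.18 ± 0.21, adjusted p = 0.0331). Kcnq1ot1 overlaps its host gene in antisense, and the sources do not say whether the counting used strand. For all of them the GFP mice of the miR-124 experiment overlapped the sponge mice, and the control groups differed at adjusted p = 0.00235, 0.00738 and 0.00673. No gene was called by edgeR among 67 ribosomal protein genes (median 0.062), 68 nuclear genes of oxidative phosphorylation (0.061), 25 genes of the miRNA pathway (-0.053), 21 of cholesterol synthesis and uptake (0.078), 11 histones (0.28) and 4 sex-linked genes (0.11). Abundant members of these lists had log2 fold changes of 0.072 (Rpl4), 0.0041 (Rpl3), 0.10 (Atp5b), 0.047 (Atp5a1), -0.050 (Ran), -0.14 (Tnrc6c), 0.21 (Srebf2), -0.055 (H2bc4), -0.089 (H2aw), 0.11 (Ddx3y) and 0.23 (Eif2s3y).

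The called genes were then set beside the GFP mice of the miR-124 experiment. Of the 114 genes called higher, 65 (57.0%) had the 3 sponge mice above all 6 GFP mice, against 4.31% of all genes tested, and 53 above all 9 others (2.29%). Of the 150 called lower, 61 (40.7%) lay below all 6 GFP mice (3.69%) and 48 below all 9 others (2.11%). Since the genes were called on 3 of these mice, the shares are descriptions. Both GFP groups differed in the 12-mouse fit for 47 of the 114 (41.2%), 97 of the 150 (64.7%) and 4270 of all genes tested (34.3%). Among the 93 genes named under the naming rule, the GFP groups differed for 41.

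GC content moved with the calls. The longest transcripts of the genes called higher had a median GC content of 56.6% and a length of 2437 bases, those called lower 49.4% and 4255 bases, and all genes tested 50.5% and 3029 bases. Of 5 bins of equal size, the one richest in GC held 59 of the genes called higher and 15 of those called lower, and the one poorest in GC held 4 and 31. The median log2 fold change was 0.080 in the richest bin and -0.046 in the poorest. After a correction for GC content, added after the data were seen, 64 genes were higher and 129 lower. Its part in the calls beyond that was not tested.

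**Figure D5:**
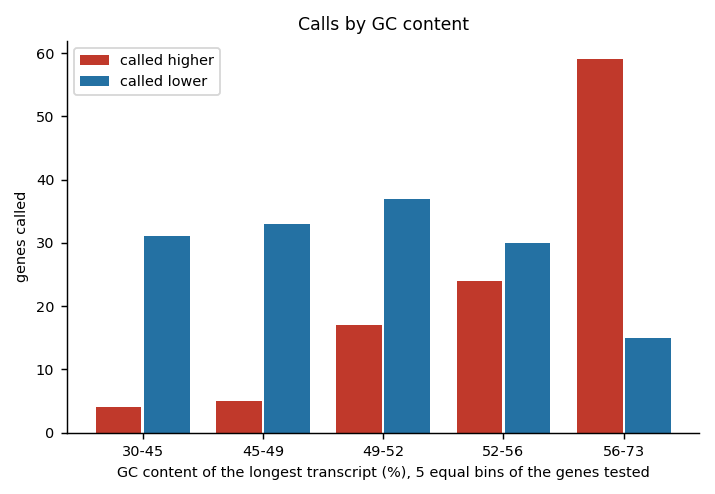
Number of genes called higher (red) and lower (blue) in 5 equal bins of the genes tested, ordered by GC content of the longest transcript (horizontal axis, percent). Higher calls increase from 4 in the poorest to 59 in the richest bin, and lower calls are fewest, at 15, in the richest.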

How the data were processed

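mRNA-seq libraries of the hippocampus of 12 mice and 8 AGO2 RIP-seq libraries were available, and the comparison used 6 mice. The authors deposited raw counts, as whole numbers per RefSeq transcript for the mRNA-seq and per 3′UTR for the RIP-seq. The study's methods give single-end reads of 50 bases mapped to mm9 and DESeq, the submitters' processing notes name mm10, STAR and edgeR, while the sources used here give no counting program. The sample labels and the methods differ in the kit named for the mRNA libraries. Counts were summed per gene symbol, which 98.7% of 32850 transcripts had. Transcripts without one held 0.849% of the counts and were left out.

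Genes were filtered with filterByExpr (minimum count 10), scaled by TMM and tested with edgeR 4.0.16 (quasi-likelihood) on the 6 mice without covariates, at a Benjamini-Hochberg adjusted p below 0.05. Errors of log2 fold changes are standard errors. The GFP groups were compared by a contrast in 1 fit of 12 mice. The total per library, 6950522 to 25831488 counts, and 3 mice per group set the precision. On counts simulated for this comparison over 12436 genes, 74% of 1.5-fold and 100% of 2-fold rises, and 62.5% of 1.5-fold and 94% of 2-fold falls, were called. The simulated counts had the same variation between mice for every gene (coefficient 0.09) and no mouse that stood apart, unlike sponge mouse 9. These shares may therefore be too high for the real mice. Each library is a separate mouse.

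The mice and gene lists were chosen with earlier results of these data known. The 33 lists were immediate early genes, cell type markers, channels, receptors, synaptic vesicles, axon guidance, matrix, immune, gliosis, stress, clock, hormone, cell cycle, miRNA pathway, cholesterol, ribosome, respiration, histone, sex-linked and noncoding genes, blood genes and miR-124 targets. Lists were described by counts and medians. Named genes were the 10 largest rises and falls among called genes with a mean of at least 20 counts and no overlap between groups, up to 4 called members of each list by p (2 most abundant members without calls), Nr4a1, up to 6 literature targets, and up to 6 genes called higher with an 8-base site. A few genes that this rule names are not reported here. AGO2-bound genes followed the study (101 scaling genes, at least 10 counts, above 4-fold of sham). Alternatives were RLE scaling, other filters, DESeq2 1.42.0, 12 mice, the header mark, both GFP groups, single-transcript genes, each mouse left out and, added later, a GC correction. R 4.3.3, limma 3.58.1, Python 3.11.15, numpy 2.4.6, pandas 2.3.3 and matplotlib 3.10.9 were used.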

Additional observations from a re-analysis of the deposited data

Results flagged for a closer look

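For 7 of the 20 genes with the largest rises and falls, the GFP mice of both experiments differed from each other in the 12-mouse fit with edgeR. This was so for a similar share of all genes tested (34.3%). For these 7 genes the change with the sponge depends on the control group. The values are log2 fold changes of the sponge mice against the GFP mice of the miR-124 experiment and then against the control mice in that fit. They were 0.85 and 2.52 for Gm5415 (adjusted p of the difference 0.0174), -0.050 and -2.44 for Cbln3 (0.00221), -0.44 and -2.13 for Cdh1 (0.0225), and -0.50 and -1.73 for Slc22a6 (0.0368). These 4 genes were not called against the GFP mice of the miR-124 experiment, with adjusted p from 0.0797 to 0.960. Fgl2, at -1.03 and -1.83 (0.0198), was called against both. Scn4b, at 2.18 and 1.42 (0.0128), and Wnt10a, at 2.09 and 1.37 (0.0303), rose more against the GFP mice of the miR-124 experiment and were called against both.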

How the results depend on the processing

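The main counts were 114 genes higher and 150 lower. They were 348 and 351 without a filter on low counts, 304 and 304 with DESeq2, 394 and 362 with 12 mice in 1 fit, 833 and 634 against both GFP groups, and 49 and 74 with the header mark as a term. In the libraries without the header mark, 2 mice a group, edgeR called 0 and 0 (684 and 592 at an unadjusted p below 0.05). Leaving out 1 mouse at a time gave 0 to 914 genes higher and 1 to 873 lower, the highest without sponge mouse 9 and the lowest without control mouse 15. The GC correction, added after seeing the data, gave 64 higher, and with the header mark as a term 9 higher and 39 lower. The counts stayed within 1.5 times of the main ones with RLE scaling, a mean of at least 50 counts and genes with 1 RefSeq transcript. The median of genes with a seed site became 0.023 against both GFP groups, and that of the AGO2-bound genes became 0.022 there and -0.061 for the 100 genes with the largest fall in rank. Of the 93 named genes, Rpl3 changed sign, to a log2 fold change of -0.23 against both GFP groups. In the main edgeR fit it was at 0.0041 (adjusted p = 0.979), with no clear direction. Calls of named genes were lost for 26 with the header mark, 17 with the GC correction, 15 against both GFP groups and 60 to 68 without any 1 mouse other than sponge mouse 9, whose removal lost 0. The cause was not tested. No paired analysis was possible because the groups share only 1 replicate number, 14.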

Other observations

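Gene families looked up after the values were seen held further calls. Of 23 tested genes for Wnt ligands and their secreted modulators, 5 were higher and 0 lower (Dkkl1, Rspo1, Sfrp1, Wnt10a and Wnt9a), with a median log2 fold change of 0.039. Without sponge mouse 9, 7 were higher and 4 lower. Of 234 solute carrier genes 0 were higher and 13 lower by edgeR, with a median of -0.025, and those lower included the meningeal transporters Slc6a13, Slc6a20a and Slc22a6. Without sponge mouse 9, 16 solute carriers were higher and 29 lower. Of 14 receptor tyrosine phosphatase genes 1 was higher (Ptprs) and 4 lower (Ptpre, Ptprf, Ptprg and Ptprk). Over all genes tested, 0.917% were called higher and 1.21% lower, and without sponge mouse 9 the shares were 7.15% and 6.83%. These families were picked for how their members moved, so that their counts are descriptions.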
